A study of Mus musculus with 6 samples.

Results

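The regions described here are the first-numbered exon bins of mouse genes whose relative usage differed from control after knockdown of Ptbp1 or of Pnky in cultured neural stem cells. An exon bin is an exon, or a part of one, whose reads are counted separately. A bin was taken as first-numbered where its row name in the authors' deposited table repeats the Entrez identifier of the gene with no number behind it, and it is called the unsuffixed bin here. The next bins of the same gene are bin 1, bin 2 and so on. Of the 1207 bins listed in 2 tables, 228 were unsuffixed, and they belonged to 208 genes. The shPtbp1 table held 175 of them among 958 bins (18.3%), in 29.1% of its 602 genes. The shPnky table held 53 among 249 bins (21.3%), in 30.3% of its 175 genes. Measured values did not enter the choice of unsuffixed bins, but every listed bin had already passed the authors' test of usage at an adjusted p under 0.01. That test had called 0.598% of all bins tested for shPtbp1 and 0.155% for shPnky.

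The cells came from the ventricular-subventricular zone, where neural stem cells persist in the forebrain after birth, of C57/B6 mice at postnatal day 5 to 7. All 6 libraries were made from cells grown in self-renewal medium with EGF and FGF, carrying the PSICO-R vector and sorted for its GFP, or for GFP and mCherry together. The hairpin was directed at luciferase in the control (shCtrl), at the long noncoding RNA Pnky in shPnky and at Ptbp1 in shPtbp1, with 2 libraries of poly(A) RNA each. The labels do not say that libraries of a group came from separate animals or cultures. The p-values therefore rest on the difference between 2 libraries of a group, which may be technical only.

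A gene can begin at more than 1 promoter and end at more than 1 poly(A) site, so the bins at its ends need not be used together with the rest of the transcript. PTBP1 is an RNA-binding protein that binds pyrimidine-rich RNA and represses many exons that neurons include. Neural progenitors hold PTBP1 at a high level and neurons lose it, while PTBP2 takes its place. Pnky is a neural long noncoding RNA known to associate with PTBP1.

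The counts listed in the shPtbp1 table summed to between 3514859 and 3920040 per library, and those of the shPnky table to between 1727096 and 2403866. They are sums over called bins alone and say nothing of full sequencing depth. Unsuffixed bins took 32.8% and 32.7% of the listed reads in shCtrl against 31.5% and 31.2% after Ptbp1 knockdown. In the shPnky table they took 31.5% of the listed reads in each shCtrl library, 28.8% in the first shPnky library and 28.7% in the other. These percents weigh each gene by its reads. Of 644403 and 578816 unsuffixed reads of the shPnky table in shCtrl, 236299 and 213604 lay in the cyclin D1 gene Ccnd1. That bin held 209000 and 150983 reads in shPnky and 141288 and 138630 in shPtbp1. The percents without Ccnd1 were not computed, so no general fall of unsuffixed bins is read from them. The targeted gene Ptbp1 had no unsuffixed bin listed. Its bin 13, the only one listed, fell from 22334 and 19594 reads to 4967 and 4961, as the label of the shPtbp1 libraries says. Pnky itself was not in either table. Of 32 markers of neural stem cells and astrocytes, 2 had a listed unsuffixed bin in the shPtbp1 table (Aldoc and Egfr). None of 24 markers of microglia, endothelium, mural cells and fibroblasts and none of 15 ependymal markers had one in either table, so the tables hold no unsuffixed bin from which a share of such cells could be read. In these bulk cultures, fewer cells of a type and less RNA per cell cannot be told apart.

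Unsuffixed bins came mostly from genes on the minus strand. A strand was found in a GRCm38 annotation for 219 of the 228. In the shPtbp1 table, 124 of 166 (74.7%) lay in minus-strand genes, against 292 of 764 (38.2%) of the other listed bins and 143 of 419 (34.1%) of the genes without a listed unsuffixed bin. In the shPnky table the figures were 38 of 53 (71.7%), 78 of 193 (40.4%) and 44 of 120 (36.7%). These are descriptions, with no test.

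The strand also went with how many reads an unsuffixed bin held. The median count per library was 3620 reads for those of minus-strand genes and 724 for those of plus-strand genes in the shPtbp1 table. The corresponding medians in the shPnky table were 4519 and 862. The other listed bins had the opposite order, with 470 reads on the minus and 1121 on the plus strand (shPtbp1 table). These counts are not divided by bin length, which the tables do not give.

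The share of a bin is the percent of the reads in all listed bins of its gene, computed for genes with at least 2 listed bins. In shCtrl, the median share of the unsuffixed bin was 67.1% in 46 minus-strand genes and 12.6% in 22 plus-strand genes of the shPtbp1 table. It was the largest listed bin in 31 of those 46 genes and in 2 of those 22. The highest-numbered listed bin showed the mirror image: among all genes with at least 2 listed bins, it was the largest in 22 of 68 on the minus strand and in 63 of 85 on the plus strand. The shPnky table had 12 such minus-strand genes with a median of 81.0%, and only 2 plus-strand genes, with a median of 27.8%. If bins are numbered along the chromosome, as DEXSeq annotations usually are, the unsuffixed bin is the 3′ end of a minus-strand gene and the 5′ end of a plus-strand gene. The tables hold no coordinates, so this numbering was not tested, and "first-numbered" is not used here to mean the first exon of a transcript.

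**Figure D1:**
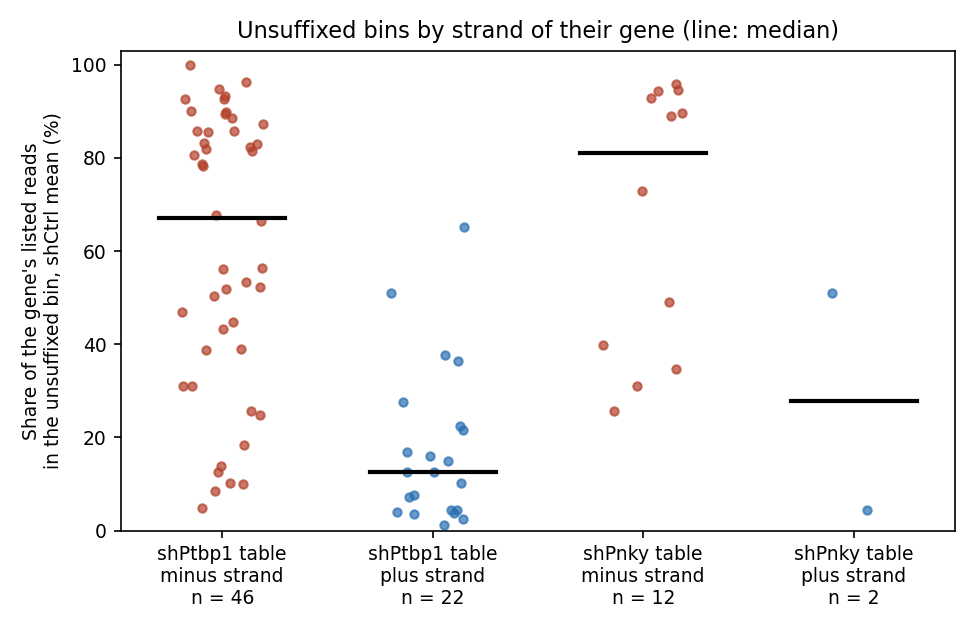
Share of the gene's listed reads in the unsuffixed bin (percent, mean of the 2 shCtrl libraries), by table and strand of the gene; each point is 1 gene with at least 2 listed bins and the line is the median. Minus-strand genes have medians of 67.1% and 81.0%, plus-strand genes of 12.6% and 27.8%.

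The first comparison asks how loss of PTBP1 changed these bins. In the shPtbp1 table, 73 unsuffixed bins had other listed bins of the same gene, up to 14 bins in Ncam1, and 102 were the only listed bin. Each was tested against the sum of the other listed bins of its gene with edgeR's quasi-likelihood test, adjusted over all listed bins of such genes, at an adjusted p under 0.01. Of the 73, 28 took a higher share in shPtbp1, 41 a lower share and 4 did not pass. Over all 516 listed bins tested, 89.7% passed, 51.6% higher and 38.2% lower, so unsuffixed bins were lower more often than listed bins as a whole, as a description. The median change of the ratio of the bin to the other bins was -0.26 on the log2 scale for unsuffixed bins and 0.19 over all. The 516 include the 73, and in 38 of the 73 genes only 2 bins were listed. There a loss of 1 bin is a gain of the other, so both contrasts are partly set by the test. These bins had been called by the authors on the same libraries, so the tests are no independent evidence that usage changed.

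Changes of share ran from -29.2 to 33.5 percentage points, with a median size of 4.21 points, while the median SD between the 2 libraries of a group was 0.344 points. The shares of the 2 groups did not overlap in 72 of 73 genes, against 96.7% of all listed bins. At least 10 points were gained by 8 unsuffixed bins and lost by 13. In the authors' deposited table, 73 unsuffixed bins had a fold of usage above 0 and 98 below 0 (42.7% above), against 443 of 774 other bins (57.2%) and 54.6% of all listed bins with a fold. Their folds were also smaller in the authors' deposited table, with a median absolute log2 fold of 0.08 for unsuffixed and 0.17 for other bins. All had passed the same adjusted p, and unsuffixed bins held more reads, with a median count per library of 2114 against 775. Whether the smaller folds go with the number of reads was not tested.

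On the minus strand, 29 unsuffixed bins lost share and 16 gained it, and on the plus strand 11 lost and 9 gained. Share calls over all listed bins were not split by strand, so these counts have no background here. By the authors' deposited table, 45 of the minus-strand unsuffixed bins had a higher and 76 a lower fold (37.2% higher), against 62.5% higher among the other bins of minus-strand genes. On the plus strand, 52.4% of unsuffixed and 54.3% of other bins were higher in the authors' deposited table. Pooled over the minus-strand genes with at least 2 listed bins, the unsuffixed bins took 70.2% of the listed reads in both shCtrl libraries and 63.3% in both shPtbp1 libraries. Over the plus-strand genes they took 9.64% and 9.38% in shCtrl and 9.17% and 8.88% in shPtbp1. Pooled percents weigh genes by their reads and so follow gene levels as well as shares. Of the pooled minus-strand reads, 236299 and 213604 in shCtrl and 141288 and 138630 in shPtbp1 lay in the unsuffixed bin of Ccnd1. Its own share went only from 92.7% to 92.2%, and the pooled percents without it were not computed. Where the unsuffixed bin and bin 1 were both listed, they had opposite folds in 20 of 25 minus-strand genes and in 4 of 12 plus-strand genes. In the shPnky table this was so in 3 of 4 and in 0 of 2. Other neighbouring bins were not counted in this way, so these counts too have no background. Whether the strands differ in their response was not tested.

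**Figure D2:**
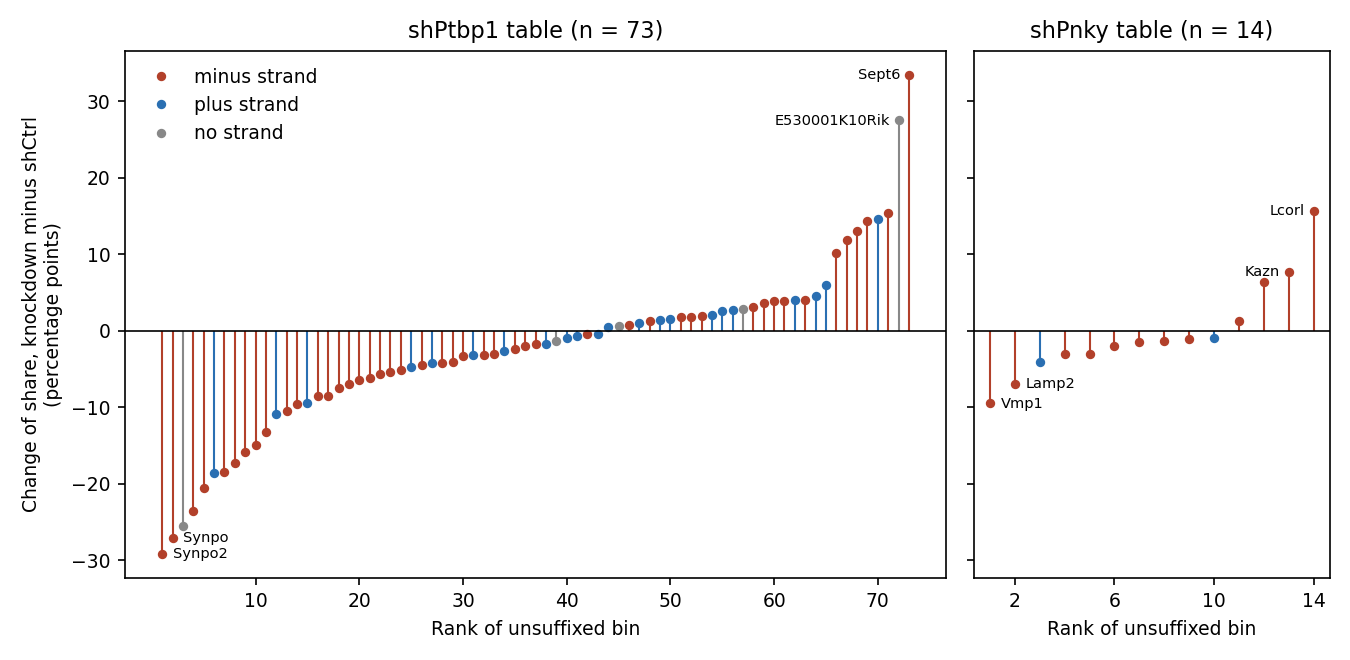
Change of the share of each unsuffixed bin, knockdown mean minus shCtrl mean (percentage points), ranked within each table and coloured by the strand of its gene; only genes with at least 2 listed bins are shown. For shPtbp1, 41 called changes are losses and 28 gains, from -29.2 to 33.5 points, and for shPnky 10 are losses and 3 gains, from -9.50 to 15.7 points.

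Synpo2 and Synpo, a pair of genes from the list of actin, adhesion and matrix genes, lost the most percentage points of share. Of 68 genes in that list, 8 had an unsuffixed bin in the shPtbp1 table: in the share test 5 fell and 1 rose of 6 tested, and in counts 6 fell and 2 rose, with a median log2 count change of -1.08. The list was written with earlier results of these data known, so its direction is no independent evidence.

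In Synpo2, which encodes an actin-bundling relative of synaptopodin, the unsuffixed bin had 1190 and 1032 reads in shCtrl against 451 and 452 in shPtbp1. Its share fell from 52.4% ± 2.16 to 23.2% ± 0.191 (SD, n = 2), and no shPtbp1 library came near a control. Bin 1 went the other way, from 813 and 763 reads to 1146 and 1196. The change of the ratio in Synpo2 was -1.87 ± 0.08 (SE) on the log2 scale (edgeR adjusted p = 2.44e-28). Synpo, which encodes synaptopodin itself, an actin-associated protein of dendritic spines and kidney podocytes, showed an exchange between its only 2 listed bins. Its unsuffixed bin held 4434 and 4095 reads in shCtrl against 2531 and 2568 in shPtbp1, while bin 1 rose from 3500 and 3153 to 6100 and 6333. With 2 listed bins the shares mirror each other, and the unsuffixed share fell from 56.2% ± 0.433 to 29.1% ± 0.335 (SD, n = 2). The bin that held the larger share in both controls thus held the smaller one in both knockdown libraries, and counts fell in one bin and rose in the other.

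Tpm1, which encodes a tropomyosin with mutually exclusive exons and alternative last exons, had 11 listed bins. The share of its unsuffixed bin fell by 2.46 ± 0.04 (SE) against the others on the log2 scale (edgeR adjusted p = 3.04e-48), and bin 1 fell with it, from 463 and 442 reads to 145 and 157. Bins 2 and 3 rose, bin 2 from 1287 and 1203 reads to 2715 and 2511. Further on, bin 7 of Tpm1 fell from 495 and 410 reads to 104 and 64. In Ncam1, the neural cell adhesion molecule, whose isoforms differ in how they are held in the membrane, bins 1 to 3 fell together with the unsuffixed bin. The unsuffixed bin went from 8997 and 8490 reads to 3444 and 3376. Bin 4 rose from 8481 and 7833 to 12659 and 12465, so the unsuffixed bin and bin 4 held like counts in shCtrl and differed in shPtbp1. In both genes a block of low-numbered bins fell and the listed bin numbered next after it rose.

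The unsuffixed bin of Pdlim7, which encodes an actin-binding PDZ and LIM domain protein, was a minor one, with 374 and 298 reads in shCtrl and 101 and 133 in shPtbp1. Its share fell from 12.6% ± 0.726 to 4.05% ± 0.997 (SD, n = 2), and bins 1 to 5 fell as well. Set against the other listed bins without the largest of them, bin 6, the change was -0.41 on the log2 scale and no longer passed. Nfasc, which encodes the adhesion molecule neurofascin of axon initial segments and nodes, was the exception of the list. Its unsuffixed bin rose from 11536 and 10712 to 16035 and 16226 reads and its share from 96.2% ± 0.244 to 98.0%. Nearly all listed Nfasc reads lay in that bin, so its share reflects bins 9 and 10, which held 132 to 344 reads in shCtrl, and the call was lost in edgeR's diffSpliceDGE, an alternative test within genes. The other 2 members of the list, the only listed bins of their genes, were chosen after their values were seen. Thbs2, a matricellular thrombospondin, fell from 16599 and 14632 reads to 10059 and 9847, and Tln2, which encodes the integrin-linking talin 2, rose from 1342 and 1275 to 2231 and 2181.

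Unsuffixed bins outside that list also lost share. In Sema4d, a transmembrane semaphorin, the bin had 1064 and 918 reads in shCtrl against 1060 and 968 in shPtbp1, so its count did not pass the test (log2 change -0.03 ± 0.06 SE). Bin 4 rose from 168 and 162 reads to 432 and 501, and the unsuffixed share fell from 85.7% ± 0.964 to 68.5% ± 3.64 (SD, n = 2). Tnk2, which encodes a non-receptor tyrosine kinase, was alike on the plus strand. Its unsuffixed bin went from 541 and 469 reads to 497 and 490, bin 11 rose from 307 and 237 to 597 and 538, and the unsuffixed share fell from 65.1% to 46.5%. In these 2 genes the shift lay in the other listed bin.

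In Atat1, the alpha-tubulin acetyltransferase gene, the unsuffixed bin fell from 512 and 516 reads to 234 and 187, together with bins 1 and 2. Against those 2 bins alone, with the largest bin left out, the ratio changed by -0.07 and did not pass, since all 3 low-numbered bins fell. Rtn4, which encodes the axon growth inhibitor Nogo, had 8 listed bins on the plus strand. Its unsuffixed bin fell from 6332 and 4857 reads to 3454 and 3012, and its share from 7.74% to 5.07%. In Ptbp2, the neuronal paralog of Ptbp1, the unsuffixed bin rose by 0.63 ± 0.04 (SE) in log2 counts while its share slipped from 94.9% to 92.9%, since bin 4 rose from 313 and 290 reads to 673 and 700. That share call was lost in diffSpliceDGE. Ptbp2, Il18bp and Rufy3 were the 3 genes of this table whose unsuffixed bin rose in counts and fell in share, and Fbxo28 and Rbmx the 2 with the reverse (the last 4 chosen after their values were seen). In Rufy3, a gene of neuronal polarity, the bin rose from 516 and 461 to 755 and 746 reads, but bin 12 rose more, from 1423 and 1191 to 3937 and 3812. Without bin 12 the ratio changed by -0.04 and did not pass. The share calls of Il18bp, Fbxo28 and Rbmx were lost in diffSpliceDGE, and the count call of Il18bp without either shCtrl (0.26 and 0.27) or the second shPtbp1 library (0.23).

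Magi1 and Med14, on the minus strand, lost share while their other listed bins rose; these and Cdkn1a were chosen after their values were seen. Magi1, a junction scaffold, had 6582 and 5509 reads against 5888 and 5454, and bin 2 rose from 931 and 829 to 1397 and 1257, so the share of the unsuffixed bin went from 85.7% ± 0.422 to 78.2% ± 0.0620 (SD, n = 2). Its count change of -0.15 passed, but not with total scaling (-0.04) or without the first shCtrl library (-0.10). Med14, a Mediator subunit gene, fell from 3681 and 3351 to 2485 and 2510 reads and from 85.5% ± 0.118 to 77.0% ± 0.831 of its 2 listed bins, and its bin 1 rose from 621 and 573 to 718 and 775. Cdkn1a, the cell cycle inhibitor p21, lies on the plus strand and gained share, from 22.5% ± 0.218 to 28.4% ± 0.167, with 973 and 870 reads against 907 and 874. Bin 1 of Cdkn1a fell from 3326 and 3027 to 2269 and 2212, so its gain again lay in the other bin.

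Some large losses rested on few reads or on genes with close relatives. The unsuffixed bin of Fam154b had 207 and 180 reads in shCtrl against 113 and 96 in shPtbp1, and its share fell from 81.5% to 61.0%, a call that was lost without the second shCtrl library, where the log2 change was -1.29. That of the histone gene Hist1h2be fell from 381 and 331 to 152 and 184 reads, and that of the zinc finger gene Gm14326 from 2262 and 2056 to 1639 and 1510. Both genes have near-identical copies among which reads may be split, so their values are uncertain. The gene with Entrez identifier 320856, listed without a symbol, went from 57 and 69 reads to 56 and 81 while its bin 1 went from 6 and 3 to 28 and 37. Its call was lost when either shCtrl library was left out, with log2 changes of -3.39 and -2.15 against -2.70 in full.

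Gains of share were fewer. The gain of 33.5 points in Sept6, which encodes a filament-forming septin, was the highest of the 73 genes. Its unsuffixed bin rose from 218 and 235 reads to 636 and 576, and bin 1 fell from 1082 and 934 to 574 and 547. The unsuffixed share went from 18.4% ± 2.36 to 51.9% ± 0.899 (SD, n = 2; edgeR adjusted p = 1.45e-26). Sept6 mirrors Synpo: in each, a pair of listed bins changed places in opposite directions.

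Camta1, a calmodulin-binding transcription activator with neuronal isoforms, had 10 listed bins. Its unsuffixed bin rose from 219 and 193 reads to 525 and 530, together with bins 5 to 9 and bin 15, while bins 22 and 23 fell in counts. The share of the Camta1 bin went from 8.56% ± 0.249 to 18.7% ± 0.418. Kazn, which encodes kazrin, a protein of cell junctions, rose from 1160 and 1061 reads to 2588 and 2619 in its unsuffixed bin. Its share rose from 38.9% to 54.2% because bin 7, the largest other bin, rose less. Against bin 6 alone the change of Kazn was -0.21 on the log2 scale and did not pass. Utp14b, a gene of ribosome biogenesis, behaved alike: its share rose from 27.7% ± 0.645 to 42.3% ± 3.53, bin 4 fell from 469 and 435 reads to 205 and 220, and against bin 3 alone its change was -0.22. In Kazn and Utp14b the gain of the unsuffixed bin was therefore a gain over 1 other bin.

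Smaller gains were measured in 3 more genes. The receptor gene Egfr rose from 7.25% to 9.33% of its listed reads, the reticulon gene Rtn1 from 56.3% to 60.3%, and Gnao1, a G protein subunit of neurons, from 4.01% to 4.98%. Without their largest other bin, Rtn1 and Gnao1 turned to a loss, of -0.62 and -0.27 on the log2 scale. Transcripts at low level moved too. E530001K10Rik went from 26 and 26 reads to 157 and 162, and 1810024B03Rik from 22 and 18 to 55 and 41, and their share calls were lost without either shCtrl library. The log2 changes of the ratio were then 1.76 and 1.45 in E530001K10Rik (1.61 in full) and 1.65 and 1.41 in 1810024B03Rik (1.52 in full). The count call of 1810024B03Rik was lost without the first shPtbp1 library (0.99 against 1.20 in full). In Pde4dip, which encodes a scaffold of the Golgi and centrosome, the unsuffixed bin rose from 31 and 19 reads to 76 and 102. Bin 45 was at 0 in both controls, so the control share of 100% rests on those 31 and 19 reads. Pde4dip was no gain of share: its share was 89.5% in shPtbp1, lower than in shCtrl, and did not pass (edgeR adjusted p = 0.023). Its log2 fold in the authors' deposited table was above 0 (0.84).

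**Figure D3:**
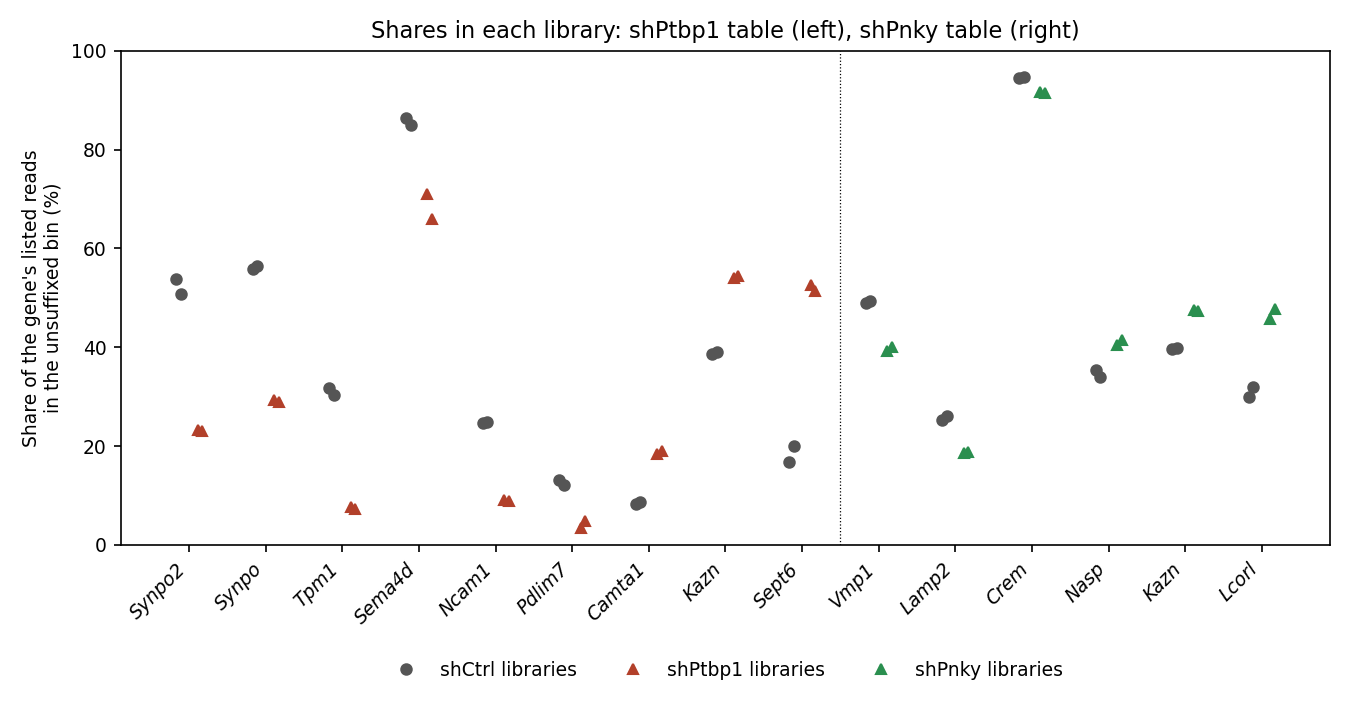
Share of the gene's listed reads in the unsuffixed bin (percent) in each library for 9 genes of the shPtbp1 table and 6 of the shPnky table; circles are shCtrl and triangles knockdown libraries. The 2 libraries of a group lie close together beside the distance between groups, for example 16.8% and 20.1% against 52.6% and 51.3% in Sept6.

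Counts of the bins themselves were compared with edgeR over all 958 listed bins. Of 175 unsuffixed bins, 53 were higher in shPtbp1, 79 lower and 43 did not pass, against 79.0% called, 40.4% higher and 38.6% lower, over all listed bins. The split depends on the scaling. With the total of the listed counts in place of TMM (trimmed mean) scaling, which moves the median of all listed bins by 0.11 on the log2 scale, 66 were higher and 55 lower, so 54.5% of the called bins were higher in place of 40.2%. By strand, 29 rose and 68 fell on the minus strand, and 18 rose and 10 fell on the plus strand. A bin's count follows the level of its gene as well as its usage. Among the 102 that were their gene's only listed bin, 26 rose and 49 fell. In 14 of these the called count change and the listed fold of the authors' deposited table had opposite signs. Count calls over all listed bins were not split by strand or by single bins. These splits therefore have no background here and are no result about unsuffixed bins.

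Among these single bins, Aldoc, an aldolase of astrocytes and neural stem cells, rose from 9328 and 7897 reads to 16298 and 15049, beside a log2 fold of usage of 0.04 (the authors' deposited table). A large change of count thus went with a small listed change of usage. Gm4876 rose from 172 and 191 to 522 and 537. Syt1, the synaptic calcium sensor, was barely detected, with 12 and 12 reads in shCtrl and 26 and 30 in shPtbp1. Its edgeR adjusted p of 0.0047 did not hold without the first shCtrl or either shPtbp1 library, where the log2 change was 1.08, 1.27 and 1.03 (1.16 in full), nor in DESeq2 (adjusted p = 0.084).

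Other bins fell. Syncrip, which encodes the RNA-binding protein hnRNP Q, fell from 12931 and 11484 reads to 8714 and 8625. Hnrnpd, which encodes a protein that binds AU-rich elements, fell from 10118 and 9413 to 7305 and 7143, although its fold in the authors' deposited table was above 0 (0.04). Luc7l3, a U1-associated splicing factor, went from 7768 and 7291 to 7239 and 7011, also with a fold above 0 in the authors' deposited table (0.06), and its count call was lost with total scaling (-0.03) and without the second shCtrl library (-0.12, against -0.14 in full). Mapk8, the JNK1 kinase gene, fell from 3511 and 3250 to 2631 and 2656. Gpm6a, a membrane glycoprotein of neurons, fell in both counts and usage, from 516 and 483 reads to 274 and 278, with -0.52 as its log2 fold (the authors' deposited table). Cyclin D1 (Ccnd1) had the most reads of any unsuffixed bin and fell from 236299 and 213604 to 141288 and 138630. Its share of 2 listed bins moved by -0.472 points, a call lost without either shCtrl library (log2 change -0.09 and -0.10).

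Among other single bins, chosen after their values were seen, Pik3r1, which encodes a regulatory subunit of PI3-kinase, fell from 9241 and 8216 reads to 4321 and 4172 (log2 change -1.10 ± 0.04 SE). Tyms, the thymidylate synthase gene of dividing cells, fell from 1818 and 1472 to 855 and 804, with 0.14 as its log2 fold of usage in the authors' deposited table. Its bin thus fell in counts while its listed usage rose. Dicer1, the nuclease that makes microRNAs, fell from 4387 and 3941 to 3071 and 2977, and Srgap2, a GTPase regulator of neuronal migration and spines, from 18913 and 16811 to 12743 and 12674. Wwtr1, which encodes the Hippo pathway coactivator TAZ, rose from 15760 and 14032 to 24518 and 24750. The long noncoding RNA gene Trp53cor1 rose from 879 and 747 to 1658 and 1688. In Diap3, a formin gene, the count did not pass (712 and 673 to 708 and 742 reads), yet the authors' deposited table gave a log2 fold of usage of 0.22. In S100a16, a calcium-binding protein gene on the plus strand, counts and usage fell together, from 865 and 863 reads to 719 and 600, with -0.40 as its log2 fold in the authors' deposited table.

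The gamma protocadherins, adhesion proteins of neurons, were looked at after their values were seen. Each gene of that cluster joins its own variable exon to a shared set of constant exons, so reads of the shared exons cannot be given to 1 gene. The unsuffixed bins of 5 members were the only bins listed for them, all on the plus strand. Pcdhgc5 rose from 3084 and 2736 to 4695 and 5018 reads (log2 change 0.68 ± 0.04 SE; edgeR adjusted p = 7.26e-14). The other 4 had folds below 0 in the authors' deposited table, between -0.14 and -0.09. Pcdhgb7 went from 1230 and 1088 to 1028 and 1102 reads. Its count call (edgeR adjusted p = 0.0086) was lost under 7 alternatives, among them the omission of either shCtrl library (-0.17 and -0.20 against -0.18 in full) and of the first shPtbp1 library (-0.11). Pcdhga11, Pcdhga12 and Pcdhgb1 had log2 count changes of -0.12, -0.09 and -0.15 that did not pass. Pcdhga11 was also listed in the shPnky table, at 2651 and 2271 reads in shCtrl against 2704 and 1960 in shPnky.

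A few members had almost no reads. In the shPtbp1 table, 7 unsuffixed bins averaged under 50 reads per library, and 4 had no listed fold. Capn11 (chosen after its values were seen) was at 0 in both shCtrl libraries and at 5 and 4 reads in shPtbp1, too few for a fold to be given here. In the shPnky table, Dach2, a transcriptional cofactor, was at 0 in both shCtrl libraries and at 6 and 6 reads in shPnky, and its count did not pass (edgeR adjusted p = 0.021).

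The second comparison asks how these bins changed with less Pnky. Of the 53 unsuffixed bins in the shPnky table, 14 had other listed bins and 39 were alone. In the share test 3 of the 14 rose, 10 fell and 1 did not pass, against 95.3% called, 57.9% higher and 37.4% lower, among all 107 listed bins tested. In 10 of the 14 genes only 2 bins were listed, so this contrast too is partly set by the test. Changes ran from -9.50 to 15.7 points with a median size of 3.01, and the groups did not overlap in 14 of 14 genes, as for 98.1% of all listed bins. The authors' deposited table gave 20 unsuffixed bins a higher and 33 a lower fold (37.7% higher), against 99 of 196 other bins (50.5%) and 47.8% of all listed bins. Among the 14 genes with other listed bins, 21.4% of unsuffixed bins had a higher fold in the authors' deposited table. The other bins of those 14 genes were not counted separately. On the minus strand the authors' deposited table had 10 unsuffixed bins higher and 28 lower (26.3% higher), against 47 of 78 other bins higher (60.3%). On the plus strand it had 10 higher and 5 lower (66.7% higher), against 51 of 115 other bins higher (44.3%).

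Vmp1, which encodes a membrane protein of autophagy, had 11 listed bins. Its unsuffixed bin fell from 13674 and 12839 reads to 10199 and 7578, and bin 1 fell with it, from 3334 and 3120 to 2486 and 1819. None of bins 2 to 10 passed the count test. The unsuffixed share of 48.9% and 49.4% in the controls dropped to 39.3% and 40.1%. In Lamp2, the lysosomal membrane protein whose isoforms end in different last exons, the unsuffixed bin had 4377 and 4190 reads in shCtrl against 4987 and 3590 in shPnky. Its count did not pass the test, bin 1 rose from 12973 and 11917 to 21740 and 15528, and the unsuffixed share fell from 25.6% ± 0.556 to 18.7% ± 0.0842 (SD, n = 2; edgeR adjusted p = 3.23e-06). In Vmp1 the unsuffixed bin itself moved, and in Lamp2 the other bin did.

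The remaining losses were small, and most lay in genes whose unsuffixed bin held nearly all listed reads. Crem, a cAMP-responsive transcription factor gene with an internal promoter, went from 94.6% ± 0.0435 to 91.6% ± 0.137 as its unsuffixed bin fell from 3073 and 2829 to 2806 and 1921 reads. Zmat3, an RNA-binding p53 target, went from 89.6% to 86.6%, with 29725 and 25365 reads in shCtrl against 20782 and 13780 in shPnky. Bins 1 to 4 of Zmat3 also fell in counts, but less. Calm3, a calmodulin gene, rose in counts from 40589 and 36160 to 53659 and 39274 and yet fell in share from 73.0% to 70.9%. Desi1, Serp1 and Mtpn lost between 1.02 and 1.45 points, with no called change in their counts. The call of Serp1, from 88.9% to 87.6%, was lost without either shPnky library (log2 change -0.18 and -0.19). The calls of Crem, Zmat3, Calm3, Desi1, Serp1, Mtpn and Pcdh7 were lost in diffSpliceDGE, where 3 unsuffixed bins in place of 10 were lower. Pcdh7, a protocadherin, fell from 51.0% to 47.0%, yet against bin 1 alone it changed by 0.38 on the log2 scale, because bin 3 rose from 2143 and 1965 to 4076 and 2676 reads. Its share call was lost without either shCtrl library, with log2 changes of -0.22 and -0.24 (-0.22 in full).

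All 3 gains were on the minus strand. In Lcorl, a transcriptional regulator gene associated with body size, the unsuffixed bin rose from 329 and 308 reads to 643 and 452. Bin 1 of Lcorl had 770 and 654 reads in shCtrl against 763 and 496 in shPnky, and its count did not pass. The unsuffixed share rose from 31.0% ± 1.47 to 46.7% ± 1.38 (SD, n = 2; edgeR adjusted p = 3.27e-05). Nasp, a histone chaperone gene with a PTBP1-regulated exon, rose from 34.7% ± 0.954 to 41.0% ± 0.680, with 3319 and 2989 reads in shCtrl against 4581 and 3375 in shPnky. Kazn rose from 39.8% ± 0.116 to 47.5% ± 0.180. Asph, an aspartate hydroxylase gene, was the 1 gene that did not pass (92.8% to 94.1%, edgeR adjusted p = 0.020). Its log2 fold in the authors' deposited table was below 0 (-0.08), opposite to the share.

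In counts, 22 of the 53 were higher in shPnky, 15 lower and 16 did not pass, against 65.1% called, 36.1% higher and 28.9% lower, among all 249 listed bins. This split also depends on the scaling. With total scaling 20 were higher and 18 lower, and in DESeq2 18 and 16. Without the first or the second shCtrl library, 13 or 14 were higher and 9 or 7 lower. Ppap2b, a lipid phosphatase gene, rose from 7896 and 6756 reads to 15151 and 10560. Cic, a transcriptional repressor of growth factor signalling, rose from 208 and 163 to 393 and 259 reads and Ccdc57 from 96 and 88 to 176 and 131. Mxra7 and Mrps15 rose by 0.49 and 0.54 on the log2 scale. The zinc finger gene Gm13251 went from 191 and 174 to 158 and 93 and the ribosomal protein gene Rpl13a from 35178 and 31526 to 34058 and 25070. Both have near-identical copies. Qk, an RNA-binding regulator of glial splicing, went from 18640 and 16123 to 20209 and 13162 and did not pass.

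The 2 shPnky libraries differed in their listed reads, with 2403866 and 1727096. Reads of that group are printed unscaled here, while the count calls and log2 count changes rest on scaled counts. A bin such as Tmem30a, a flippase subunit gene, with 21770 and 19940 reads in shCtrl against 21525 and 15208 in shPnky, fell by 0.23 on the log2 scale after scaling although its raw counts overlap. The count calls of Calm3, Gm13251, Gm14326, Kazn, Pcdh7, Rfxank and Rpl13a were lost without either shCtrl library. Those of Cox16, Fis1 and Tmem30a were lost without the second and that of Ccdc57 without the first. In these 11 genes the log2 change moved by at most 0.063.

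Unsuffixed bins of 20 genes were listed in both tables, which is 37.7% of those in the shPnky table and 11.4% of those in the shPtbp1 table. The tables share the 2 shCtrl libraries, and the control counts of all 20 were identical, so each table's values are set side by side with no test of likeness. In the authors' deposited tables, 6 of the 20 had a higher fold in both and 14 a lower fold in both. Both folds rest on the same shCtrl libraries, so their signs are not independent. The overlap and the like signs were not counted over all bins listed in both tables. They therefore have no background here and are no result about unsuffixed bins. Kazn, Fis1, Lcorl and Zfp428 were among those higher in both. The log2 count changes were 1.17 ± 0.05 (SE) in shPtbp1 and 0.27 ± 0.06 in shPnky for Kazn, and 0.27 ± 0.09 and 0.73 ± 0.08 for Lcorl. The count call of Lcorl in shPtbp1 was lost without either shCtrl library (0.23 and 0.29) and without the second shPtbp1 library (0.21). That of Zfp428 (0.26 in full) was lost without the second shCtrl (0.19) or the first shPtbp1 library (0.10). Fis1, a mitochondrial fission gene, rose by 0.51 ± 0.07 and 0.49 ± 0.08, from 591 and 510 reads to 865 and 765 in shPtbp1 and to 875 and 713 in shPnky. In counts, Lcorl thus changed more in shPnky, Kazn more in shPtbp1 and Fis1 by like amounts, with no test between the knockdowns. In usage, the log2 fold of Lcorl in the authors' deposited tables was 0.19 in both. Its share rose from 31.0% to 44.0% in shPtbp1 and to 46.7% in shPnky. The listed folds in shPtbp1 and shPnky were 0.23 and 0.11 for Kazn and 0.16 and 0.15 for Fis1.

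Of the 14 that were lower in both, Vmp1 fell in counts by 0.33 ± 0.03 (SE) in shPtbp1 and by 0.62 ± 0.04 in shPnky, and its share went from 53.3% to 47.9% of 9 listed bins in the former. Ccnd1 fell by 0.74 ± 0.03 and 0.37 ± 0.03, Rfxank, a subunit of the MHC class II regulatory complex, by 0.69 ± 0.04 and 0.20 ± 0.04, and Tmem30a by 0.63 ± 0.03 and 0.23 ± 0.03. Cox16, a cytochrome oxidase assembly gene, fell by 0.55 ± 0.10 and 0.41 ± 0.08. Syncrip and Gm14326 also fell in counts in both tables. For the other 7 the count did not pass in at least 1 table. The count of Calm3 did not pass in shPtbp1 and rose in shPnky, and with total scaling its shPtbp1 count was higher by 0.09. Its share fell in both, in shPtbp1 from 50.3% ± 0.0710 to 45.9% ± 0.478. Lamp2, Pcdh7 and Arpp19, a phosphatase inhibitor gene, likewise lost share in both tables. None of the Pcdh7 and Arpp19 losses was still called when their largest other bin was left out. Pcdh7 then turned to a gain of 0.33 on the log2 scale in shPtbp1, which passed (edgeR adjusted p = 1.02e-04). In shPnky its gain of 0.38 did not pass (edgeR adjusted p = 0.0103). The ratio of Arpp19 then changed by 0.0098 on the log2 scale in shPtbp1 and by -0.05 in shPnky. In shPtbp1 the share of Pcdh7 changed by -0.19 on the log2 scale, a call lost without the first shCtrl (-0.17) or the second shPtbp1 library (-0.17). Itm2b, Gpm6a and Pcdhga11 had no second bin listed in either table.

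**Figure D4:**
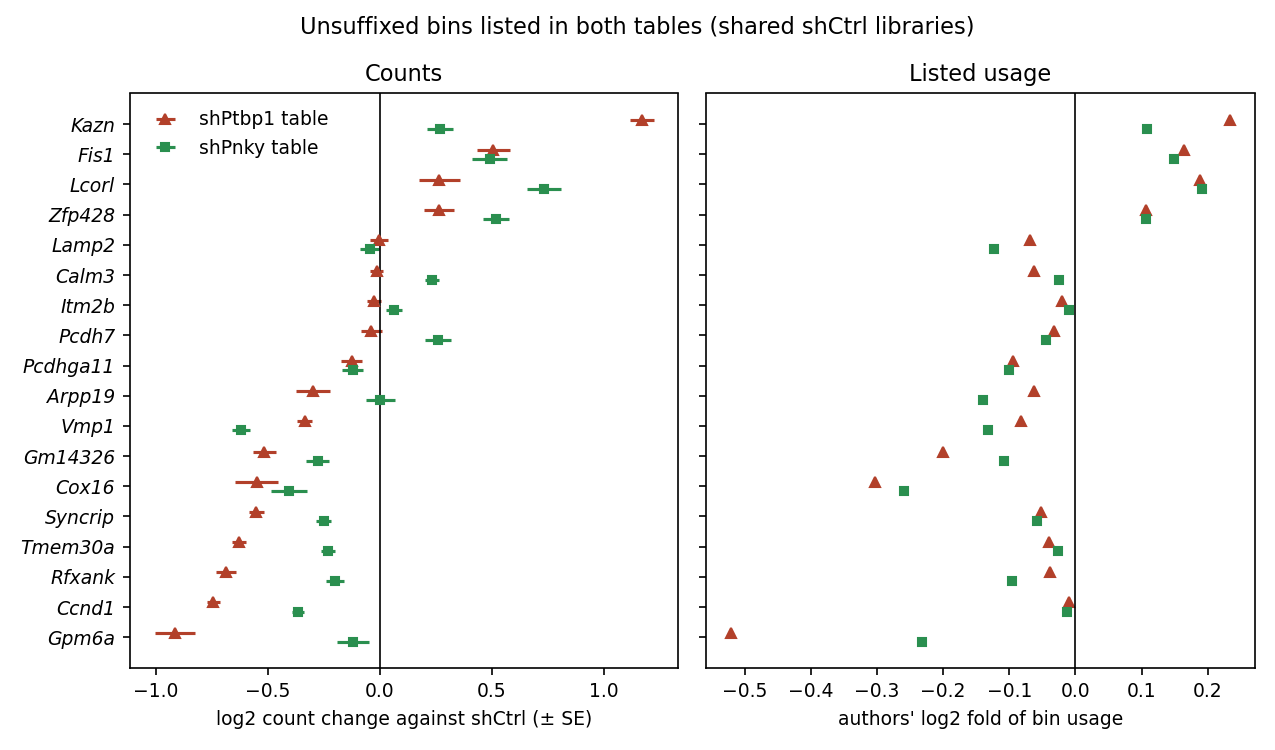
Unsuffixed bins listed in both tables, 18 of the 20: log2 count change against shCtrl with its SE (left) and the log2 fold of usage in the authors' deposited tables (right), for shPtbp1 (triangles) and shPnky (squares). The listed folds, which share the shCtrl libraries, lie on the same side of 0 for all 18 (4 above, 14 below). Counts of Calm3, Pcdh7, Itm2b and Arpp19 lie on different sides, for example -0.01 and 0.23 in Calm3 and -0.04 and 0.26 in Pcdh7.

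Gene lists held few unsuffixed bins. Of 41 textbook targets of PTBP1, 24 had a listed bin in the shPtbp1 table and 5 an unsuffixed one (among them Camta1, Ptbp2, Rtn4 and Tpm1), of which 1 gained share and 4 lost it. Among 71 splicing factors and RNA-binding proteins, 3 had one in the shPtbp1 table (Hnrnpd, Luc7l3 and Ptbp2), with 1 higher and 2 lower in counts. In the list of synapse, vesicle and membrane trafficking genes, 6 of 62 had one in the shPtbp1 table. Of these, Gnao1 and Slc30a7, a zinc transporter gene (93.3% to 95.3%, a call lost in diffSpliceDGE), gained share and Lamp2, Tmem30a and Vmp1 lost it, while Syt1 had no second bin. The share call of Tmem30a was also lost in diffSpliceDGE. The same list had 3 in the shPnky table, all with a lower fold in the authors' deposited table. Of 60 chromatin and transcription genes, Camta1 and Lcorl gained share in shPtbp1, and Lcorl gained and Zmat3 lost in shPnky. Of 61 signalling genes, 4 had one in the shPtbp1 table, where Egfr gained and Arpp19 and Calm3 lost share. Of 45 microtubule, motor and axon genes 2 had one, Rtn1 with a gain and Rtn4 with a loss. Of 38 ribosomal and housekeeping genes, Rps3 fell slightly in counts in shPtbp1 (-0.15 ± 0.04 SE), a call that was lost with total scaling (-0.05) and without the first shCtrl library (-0.12). Of 21 neuroblast and neuron markers Ncam1 and Syt1 had an unsuffixed bin in the shPtbp1 table, and of 17 oligodendrocyte-lineage markers Nfasc had one; the shPnky table had none of either. In the shPnky table, Rpl13a was the ribosomal and Qk the splicing gene with an unsuffixed bin.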

How the data were processed

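Strand-specific, poly(A)-selected RNA-seq was made from 6 libraries in 3 groups. Build mm9 and, among other tools, TopHat2 2.0.10 and Cuffdiff 2.1.1 are named in the submitters' processing notes. How bins were defined and counted, and the version of DEXSeq, is not given in the sources used here. For each knockdown the authors deposited a table of bins with an adjusted p-value under 0.01, which were 0.598% of 160290 bins (shPtbp1) and 0.155% of 160603 (shPnky) that had been tested, a number taken from p and adjusted p. Per the file headers, rows hold raw counts for 4 libraries, a p-value, a log2 fold, a mean signal and fitted usage scores. Pooled bins were matched by row name, and symbols by Entrez identifier (53 of 53 and 172 of 175 matched). GENCODE (GRCm38) gave names and strand only.

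Counts were tested in edgeR 4.0.16 (R 4.3.3) with TMM scaling, glmQLFit and glmQLFTest over all listed bins, per table on its own 4 libraries. Shares were tested with 2 columns per library, the bin and the sum of the other listed bins, over genes with at least 2 listed bins. P-values were adjusted by Benjamini-Hochberg over all bins tested, with calls under 0.01. Scaling rests on called bins. Scripts were tested on simulated data. Genes were named by rule: the largest and smallest changes of share (8 each per table), of counts (5 each, mean count of at least 50) and of the authors' adjusted p (5 each direction), genes in both tables and up to 4 per list; others named are marked where they appear. The members, the 13 lists (503 genes) and the tests were chosen with earlier results of these data known. Alternatives were DESeq2 1.42.0, total scaling, a mean count of at least 50, diffSpliceDGE, leaving out the largest other bin (genes with at least 3), an adjusted p under 0.001, leaving out each library and a replicate block. No library was a duplicate of another: within groups, chi-square per degree of freedom was 2.42 to 7.62. Some genes are not reported here.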

Additional observations from a re-analysis of the deposited data

How the results depend on the processing

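Among the alternatives run for named bins, 538 of 589 count results and 285 of 318 share results of the shPtbp1 table kept their direction and side of the threshold, as did 294 of 332 and 100 of 116 of the shPnky table. With the largest other bin left out, which leaves 35 and 4 bins to test, 5 unsuffixed bins were higher and 17 lower in share in shPtbp1 (28 and 41 before), and 0 and 2 in shPnky (3 and 10 before). There the log2 change turned to -0.21 in Kazn, -0.22 in Utp14b, -0.62 in Rtn1 and -0.27 in Gnao1 (shPtbp1). It turned to 0.33 in Pcdh7 and 0.0098 in Arpp19 (shPtbp1) and to 0.38 in Pcdh7 (shPnky). Of these, Rtn1, Gnao1 and Pcdh7 passed in the turned direction in shPtbp1, and the others did not pass. This setting compares a bin with fewer bins. With diffSpliceDGE, shPtbp1 had 19 higher and 29 lower and shPnky 3 and 3; the cause was not tested. With total scaling, the Calm3 count change in shPtbp1 was 0.094 (-0.01 before). Leaving out 1 library gave 45 to 49 higher and 65 to 75 lower counts in shPtbp1, and 13 to 22 and 7 to 18 in shPnky, the lowest without a shCtrl library. Shares ranged over 24 to 28 higher and 37 to 41 lower in shPtbp1, and 3 to 4 and 9 in shPnky. The percent with a higher listed fold in shPnky was 21.4 in genes with at least 2 listed bins (37.7 before). At the authors' adjusted p under 0.001, 11 bins were in both tables in place of 20.

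Same-numbered deviations correlated at -0.04 in shPtbp1 and -0.292 in shPnky. With 2 libraries per group, the crossed pairing gives the same values with the opposite sign. These correlations therefore cannot show whether library numbers pair the samples. With a replicate block, counts gave 49 higher and 74 lower in shPtbp1 and 22 and 15 in shPnky, and shares 28 and 42, and 3 and 9. It lost the count calls of Syt1, Lcorl, Pcdhgb7, Capn11 and Slc30a7 in shPtbp1 and the share call of Pcdh7 in shPnky. The crossed pairing, added after seeing the data for shPnky, gave 23 and 16 in counts and 3 and 9 in shares. Unlisted bins enter no share, so depth outside the listed bins is unknown.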
